A study of Mus musculus with 34 samples.

Results

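Promoters co-bound by HDAC3 and PROX1 in mouse liver were taken as the peaks with identical coordinates in the deposited HDAC3 and PROX1 peak lists whose centre lay within 1 kb of the transcription start site (TSS) of a protein-coding transcript on the mouse assembly mm9. This gave 1585 promoter peaks, each 200 bp wide, or 7.91% of the 20039 co-bound peaks. The 2 lists together hold 28631 distinct peaks. The promoter peaks were divided by HNF4α. A promoter was counted as bound by HNF4α when a single peak of the deposited HNF4α list covered at least 50% of it, and 867 promoters met this and 718 did not. The promoters were thus selected on the presence of HDAC3 and PROX1 peaks and on the distance to the TSS, and divided on HNF4α, so these values are descriptions and not findings.

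The peaks come from chromatin immunoprecipitation followed by sequencing (ChIP-seq) of livers of male C57B/6 mice, labelled 10 weeks old and collected 10 h after lights on (ZT10). There were 3 HDAC3 and 3 PROX1 libraries from livers labelled Control, and 2 HNF4α libraries from livers labelled HNF4A_floxed. These carry floxed Hnf4α alleles and received, by the methods, a control virus (AAV8 TBG Egfp) whose TBG promoter is active in hepatocytes. The authors pooled the replicates before calling peaks, and the HDAC3 and PROX1 lists carry neither a score nor a read count, so the depth of a promoter and the spread between livers are unknown. Whole liver was profiled, so strong binding in a fraction of the cells and weaker binding in all cells cannot be told apart. Each of the HDAC3 and PROX1 lists is divided by empty lines into 4 unlabelled blocks, of which the first 3 are the co-bound peaks. They hold 1132, 206 and 247 of the promoters, and HNF4α was present at 62.2%, 42.2% and 30.8% of these, so the main comparisons are also given within blocks.

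HDAC3 is a histone deacetylase that acts within the NCoR corepressor complex and is brought to DNA by transcription factors and nuclear receptors. PROX1 is a homeodomain protein needed for the development of the liver, and HNF4α is a nuclear receptor that maintains the expression of hepatocyte genes and binds as a homodimer to closely spaced half-sites. Mammalian promoters fall broadly into those in CpG islands, typical of housekeeping genes, and those poor in CpG, typical of tissue-specific genes.

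Promoter sequences are printed to show what the division looks like in sequence. They were picked among peaks whose whole 200 bp lies upstream of the nearest TSS and outside annotated transcripts, are read from the mm9 genome (NCBIM37) and are written 5′ to 3′ on the strand of the gene. The first 3 had the highest HNF4α scores among such peaks with a match to the HNF4 motif, and capitals mark that match (CAAAGTCCA or its reverse complement with at most 1 mismatch). The peak of Inhbe, which encodes the inhibin beta E subunit secreted by the liver, lies at chr10:126789371-126789570 on the reverse strand. That of Leap2, which encodes a peptide that blocks the ghrelin receptor, lies at chr11:53236691-53236890 on the reverse strand and holds the motif without a mismatch. That of Dtx4, a ubiquitin ligase gene of the Deltex family, lies at chr19:12576601-12576800 on the reverse strand.
Inhbe: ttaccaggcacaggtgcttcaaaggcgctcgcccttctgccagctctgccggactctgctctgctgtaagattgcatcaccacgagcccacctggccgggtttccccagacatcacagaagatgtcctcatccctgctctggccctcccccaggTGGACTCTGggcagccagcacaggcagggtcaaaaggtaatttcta
Leap2: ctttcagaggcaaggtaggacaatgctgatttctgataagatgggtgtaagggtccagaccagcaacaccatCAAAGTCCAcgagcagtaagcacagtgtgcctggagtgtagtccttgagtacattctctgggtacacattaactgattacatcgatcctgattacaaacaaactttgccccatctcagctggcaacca
Dtx4: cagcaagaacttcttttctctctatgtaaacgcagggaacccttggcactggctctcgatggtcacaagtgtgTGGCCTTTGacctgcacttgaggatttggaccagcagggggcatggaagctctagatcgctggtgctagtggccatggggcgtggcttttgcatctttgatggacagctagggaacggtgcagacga

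The next 2 had the highest HNF4α scores among such peaks with no HNF4 match, and capitals mark a C/EBP match (TTGCNNAA on either strand). Mgst1, which encodes a microsomal glutathione transferase, has its peak at chr6:138088549-138088748 on the forward strand, and C1rl, a gene for a protease related to complement C1r, at chr6:124442865-124443064 on the forward strand.
Mgst1: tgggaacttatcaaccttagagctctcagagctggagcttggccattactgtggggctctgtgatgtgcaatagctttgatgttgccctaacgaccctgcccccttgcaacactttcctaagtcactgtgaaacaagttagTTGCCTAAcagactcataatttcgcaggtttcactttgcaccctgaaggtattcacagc
C1rl: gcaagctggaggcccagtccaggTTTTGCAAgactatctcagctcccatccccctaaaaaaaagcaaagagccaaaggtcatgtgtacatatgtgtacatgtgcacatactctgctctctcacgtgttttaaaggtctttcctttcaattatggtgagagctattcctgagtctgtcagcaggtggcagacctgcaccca

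The last 3 were, among such peaks that no HNF4α peak touched, those nearest to the TSS of a gene in the lists described below. Arg1, which encodes the arginase of the urea cycle, has its peak at chr10:24647277-24647476, Fgb, which encodes the fibrinogen beta chain, at chr3:82853727-82853926, and Insig2, which encodes a protein that holds back the activation of the sterol-responsive SREBP factors, at chr1:123229173-123229372, all on the reverse strand. Capitals mark the C/EBP match in Fgb. Neither of the motifs matched in Arg1 or Insig2, which says only that these letters are not in these windows.
Arg1: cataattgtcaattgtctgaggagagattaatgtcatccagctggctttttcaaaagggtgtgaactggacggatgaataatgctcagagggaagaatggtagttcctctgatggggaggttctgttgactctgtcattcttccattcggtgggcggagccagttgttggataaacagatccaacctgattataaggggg
Fgb: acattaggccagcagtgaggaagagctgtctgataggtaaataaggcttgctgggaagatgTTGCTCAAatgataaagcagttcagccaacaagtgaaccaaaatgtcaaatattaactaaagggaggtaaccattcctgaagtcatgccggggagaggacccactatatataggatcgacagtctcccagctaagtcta
Insig2: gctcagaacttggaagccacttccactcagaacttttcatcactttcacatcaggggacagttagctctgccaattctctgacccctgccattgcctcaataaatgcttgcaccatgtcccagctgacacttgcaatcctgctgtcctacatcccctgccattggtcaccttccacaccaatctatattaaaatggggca

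HNF4α was present at 54.7% of the co-bound promoters (867 of 1585, 95% Wilson interval 52.2 to 57.1), against 61.3% of all co-bound peaks. Intervals here cover counting error over peaks only, and tests are two-sided Pearson chi-square tests over peaks, which are not replicates. Of the distal co-bound peaks, which lie over 1 kb from every protein-coding TSS, 61.9% (11417 of 18454) carried HNF4α. The promoters differed from these by -7.17 percentage points (interval -9.72 to -4.63, chi-square p = 1.89e-08), and they were lower on 19 of 20 chromosomes. Within the first block the difference was -4.48 points (chi-square p = 0.00211), within the second -9.72 points (p = 0.00757), and within the third -2.12 points and not significant (interval -8.01 to 4.30, p = 0.508).

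Promoter peaks of a single factor carried HNF4α less often. Among 561 promoter peaks found in the PROX1 list and not in the HDAC3 list, 164 (29.2%) had HNF4α, which put the co-bound promoters 25.5 points higher (interval 20.9 to 29.8, chi-square p = 3.2e-25). Among 230 promoter peaks found in the HDAC3 list alone, 24 (10.4%) had HNF4α, a difference of 44.3 points (interval 39.03 to 48.4, chi-square p = 4.03e-36). The co-bound promoters were higher on each of the 20 chromosomes in both comparisons. The gap to the PROX1-only promoters was not found in every block. Co-bound promoters of the first and second blocks had HNF4α in 62.2% and 42.2%. Those of the third had it in 30.8% (76 of 247, interval 25.3 to 36.8), close to the 29.2% of PROX1-only promoters, which was not tested. The livers behind the HDAC3 and PROX1 lists were not those of the HNF4α libraries, so these lists do not measure co-binding in the same liver. The authors tested it separately, by sequential immunoprecipitation at sites near several lipid-related genes. They also profiled HDAC3, PROX1 and HNF4α in floxed control livers and in livers lacking HNF4α. They report that a significant part of the HDAC3 and PROX1 peaks was strongly reduced in the latter.

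**Figure D1:**
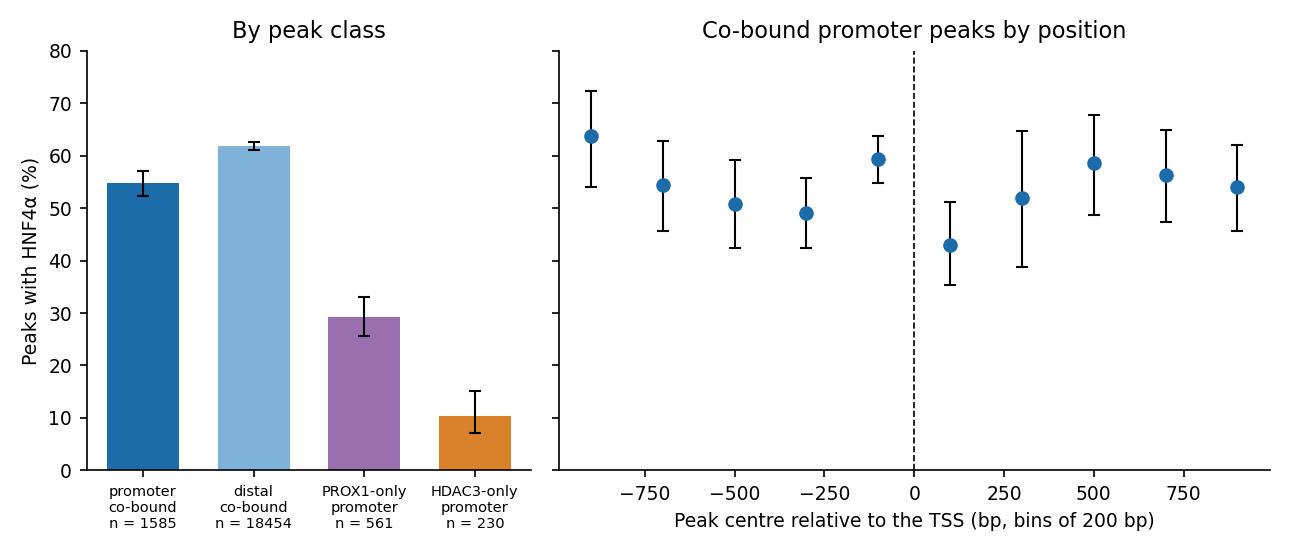
The left panel plots the percentage of peaks with HNF4α in 4 classes of peaks, and the right panel plots the same percentage for the 1585 co-bound promoters in bins of 200 bp around the TSS; error bars are 95% Wilson intervals. The co-bound promoters at 54.7% lie between the distal co-bound peaks at 61.9% and the promoter peaks of 1 factor at 29.2% and 10.4%, and among the bins just beside the TSS the upstream one is at 59.4% and the downstream one at 43.1%.

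At the promoters counted with HNF4α, a median of 148 bp of the 200 bp was covered and the centres of the 2 peaks lay a median of 20.5 bp apart. Both values are set in part by the rule, which asked for 50% coverage and so left out the 134 promoters touched by less, and are a description. The HNF4α list gives each peak the authors' HOMER score, which runs from 20.3 to 160.2 with a median of 41.9 over 24253 peaks. At the co-bound promoters the score ranged from 20.3 to 138.5, with a median of 52.3 and quartiles of 37.7 and 74.2. The median at distal co-bound peaks was also 52.3, whereas it was 38.6 at the PROX1-only and 42.1 at the HDAC3-only promoters that had HNF4α.

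The promoters without HNF4α included 134 (8.45% of all) that an HNF4α peak touched by less than 50% and 584 (36.8%) that none touched. Just above the limit, Dynll2, Pla2g6 and Gapdh had 100 bp covered, and just below it Entpd8, St3gal2 and Pard3 had 99 bp covered, with HNF4α scores of 46.2, 66.9, 61.3, 108.4, 43.8 and 27.8 in that order. Coverage of 50 to 55% was found at 44 promoters and coverage of 45 to 50% at 33. At the distance limit, the peaks of Aldh8a1 and Pm20d1 lay 1000 bp and 999 bp downstream of the TSS and were included, and those of Inmt and Xkr9, 1001 bp upstream and 1002 bp downstream, were not.

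The HNF4 motif was more frequent in the promoters with HNF4α than in those without, although most promoters of both groups lacked it. It matched in 29.3% (254 of 867) of the promoters with HNF4α and 6.13% (44 of 718) of those without, against 5.02% of 45939 windows of 200 bp centred on protein-coding TSSs. The difference was 23.2 points (interval 19.6 to 26.6, chi-square p = 6.96e-32), and it was above 0 on each of the 20 chromosomes. The motif without a mismatch was found in 4.38% and 0.279%. Within the 3 blocks the difference was 22.3, 27.98 and 23.8 points (chi-square p = 1.8e-19, 6.36e-08 and 5.25e-07).

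The matches also lay nearer to the middle of the peak where HNF4α was present. The median distance from the centre of the peak was 37 bp for 291 matches in the promoters with HNF4α and 55 bp for 48 matches in those without, and 66.7% and 45.8% of the matches lay within 50 bp. The rule of 50% coverage favours HNF4α peaks near the middle of the 200 bp. The difference in position is therefore set in part by the rule and is a description. Promoters with HNF4α that held the motif had a median HNF4α score of 69.0 (quartiles 49.5 and 86.7, n = 254), and those with HNF4α and no match had a median of 47.1 (quartiles 34.9 and 66.0, n = 613).

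Among peaks with HNF4α, promoters and distal sites did not differ significantly in the motif. The share was 29.3% at promoters and 28.4% at distal co-bound peaks with HNF4α, a difference of 0.935 points with an interval of -2.11 to 4.16 (chi-square p = 0.556). Without HNF4α it was lower at promoters, at 6.13% against 9.35% (chi-square p = 0.00415). Over all promoters of a class, the motif was found in 20.9% of PROX1-only and 18.8% of co-bound promoters, which was not tested. Within each HNF4α group, PROX1-only promoters held it more often than co-bound promoters. The motif was found in 40.9% (67 of 164) of PROX1-only promoters with HNF4α, from which the co-bound promoters differed by -11.6 points (chi-square p = 0.00338), and in 12.6% (50 of 397) of those without HNF4α, with a difference of -6.47 points (p = 0.000198). These comparisons were chosen after the first results were seen. HDAC3-only promoters without HNF4α held it in 4.37% (9 of 206), which was not significantly different from the co-bound ones (chi-square p = 0.338, interval of the difference -2.27 to 4.63 points).

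The C/EBP motif, the binding sequence of a family of hepatocyte and adipocyte factors, was found in 27.8% (241 of 867) of the promoters with HNF4α and 20.5% (147 of 718) of those without, against 5.49% of TSS windows. The difference of 7.32 points (interval 3.09 to 11.5) was significant (chi-square p = 0.000737) and above 0 on 16 of 20 chromosomes. It was 6.92 points in the first block (chi-square p = 0.0105), and in the other 2 it was 3.44 and 3.22 points and not significant (p = 0.564 and 0.526). Limiting HNF4α to peaks with a score above the median of its list lowered it to 3.39 points (chi-square p = 0.129). Both motifs stood together in 69 promoters with HNF4α (7.96%) and in 9 without (1.25%), and neither was found in 50.9% and 74.7%. The C/EBP motif was not particular to the promoters. Distal co-bound peaks held it in 26.3% and all co-bound promoters in 24.5% (chi-square p = 0.118, interval of the difference -3.95 to 0.470 points).

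Of 14 further motifs, 13 could be tested, and 1 (7.69%) differed between promoters with and without HNF4α at an adjusted p under 0.05 (Benjamini-Hochberg over these motifs). This was DR1, a pair of AGGTCA half-sites 1 base apart searched with up to 2 mismatches, the element of nuclear receptor dimers. It was found in 15.6% with HNF4α, 7.24% without and 2.07% of TSS windows (chi-square test, adjusted p = 4.04e-06). Distal co-bound peaks held DR1 in 13.1%, so it was not particular to the promoters. DR1 and the HNF4 motif can match the same bases, and 43 of the 187 promoters with DR1 also held the HNF4 motif. Among promoters with no HNF4 match, a subset looked at after the first results, DR1 was found in 15.99% (98 of 613) with HNF4α and 6.82% (46 of 674) without (chi-square p = 1.91e-07).

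Several of the remaining motifs differed in frequency between the co-bound promoters and the TSS windows, which is given as a description. FOXA (TNTTTAC), the motif of pioneer factors of the liver, was found in 14.99% with HNF4α, 15.04% without and 5.52% of TSS windows. HNF1 (GTTAATNAT), bound by another hepatocyte homeodomain factor, was found in 1.85% with HNF4α, 2.79% without and 0.361% of TSS windows. D-box (TTATGNAA), read by PAR bZIP factors of the clock output, was found in 5.19%, 5.99% and 1.40%. These elements of liver and clock factors were thus each more frequent in the promoters than in TSS windows. The windows compared differ in base composition and in position. Distal co-bound peaks held FOXA in 17.8%, HNF1 in 1.86% and D-box in 7.39%, so these frequencies were not particular to the promoters.

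Motifs of promoters of widely expressed genes were rare. SP/KLF (GGGGCGGG) was found in 1.04% with HNF4α, 2.37% without and 16.2% of TSS windows. ETS (CCGGAAG) was found in 1.15%, 2.51% and 8.59%, and NRF1 (CGCANGCG) in 0.577%, 1.25% and 8.10%. YY1 (ATGGCGGC) was found in 0 of 1585 promoters, which allows a share of up to 0.189%, and in 3.10% of TSS windows. Distal co-bound peaks also rarely held these motifs, with SP/KLF in 0.737%, ETS in 0.797%, NRF1 in 0.114% and YY1 in 0.0975%. RORE (ANTAGGTCA), the element of ROR and REV-ERB receptors, was found in 1.85% with HNF4α and 0.696% without, and it had with SP/KLF and ETS an unadjusted p under 0.05 and an adjusted p of 0.151. The E-box CACGTG, NFY (CCAATNNG), CRE (TGACGTCA), DR2 (AGGTCA half-sites 2 bases apart) and a TATAAA on the sense strand starting 40 to 20 bases before the TSS had adjusted p values of 0.478 to 0.985. Letters were searched on both strands except TATAAA, and RORE, DR1 and DR2 share a half-site.

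**Figure D2:**
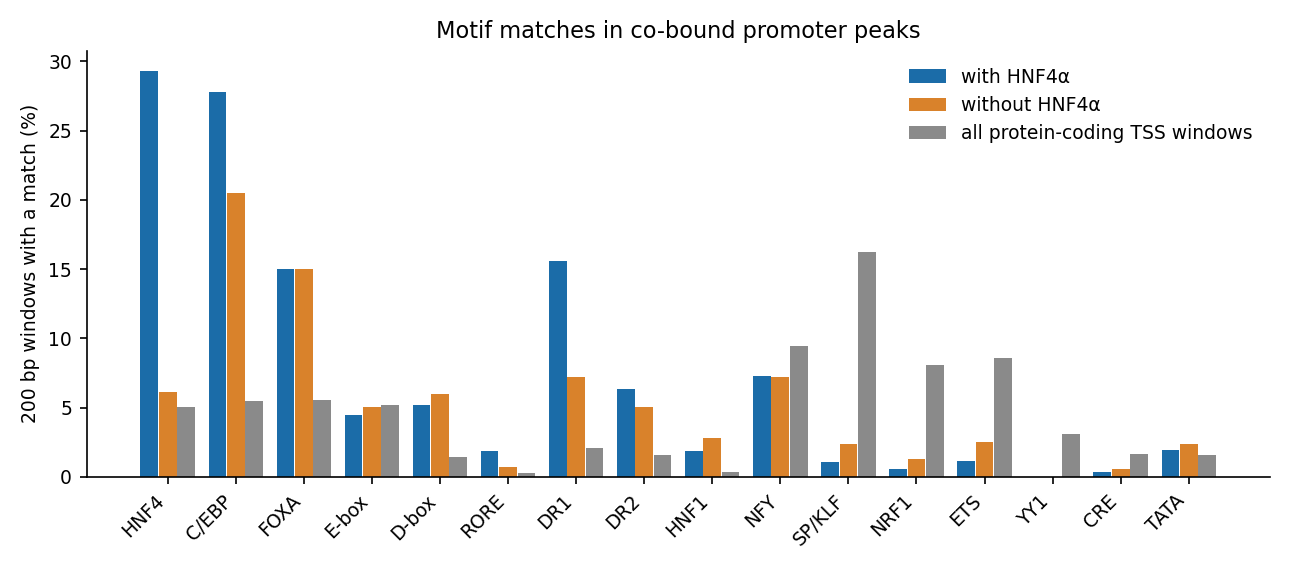
The vertical axis is the percentage of 200 bp windows with a match to each motif, for 867 co-bound promoters with HNF4α, 718 without and 45939 windows centred on protein-coding TSSs. HNF4 (29.3% against 6.13%), C/EBP (27.8% against 20.5%) and DR1 (15.6% against 7.24%) are higher with HNF4α, and SP/KLF, NRF1, ETS and YY1 are highest in the TSS windows.

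The 200 bp peaks at the co-bound promoters were poor in CpG. A window was called CpG-rich when its GC content was above 50% and its ratio of observed to expected CpG above 0.6. This held for 69 of the 1585 promoters (4.35%, interval 3.45 to 5.47), against 48.3% of all protein-coding TSS windows. The median ratio of observed to expected CpG was 0.282 in the promoters and 0.607 in the TSS windows, and the median GC content was 48.5% and 59.5%. The peaks were centred a median of 335 bp from the TSS, so the windows compared also differ in position. The TSS windows nearest to the peaks were CpG-rich in 37.98%. HNF4α peaks within 1 kb of a TSS, taken over the whole HNF4α list, were CpG-rich in 22.3% (588 of 2636).

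CpG content also differed between classes. HDAC3-only promoters were CpG-rich in 18.7% (43 of 230), from which the co-bound promoters differed by -14.3 points (chi-square p = 2.98e-17), while PROX1-only promoters, at 5.88% (33 of 561), were not significantly different (p = 0.144, interval of the difference -3.97 to 0.476 points). Distal co-bound peaks were CpG-rich in 0.493% (chi-square p = 1.13e-61). Promoter and distal peaks were divided by distance to the TSS, where CpG-rich windows are common. That difference is therefore set in part by the rule and is a description. Promoters with HNF4α were CpG-rich in 2.999% (26 of 867) and those without in 5.99% (43 of 718), a difference of -2.99 points (interval -5.18 to -0.957, chi-square p = 0.00369) that was below 0 on 13 of 20 chromosomes. It was not significant within the other 2 blocks (chi-square p = 0.973 and 0.892), nor when HNF4α had to cover 75% (-1.44 points, p = 0.224), and it turned to 0.183 points (p = 0.555) with limits of 0.75 for the CpG ratio and 55% for GC.

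**Figure D3:**
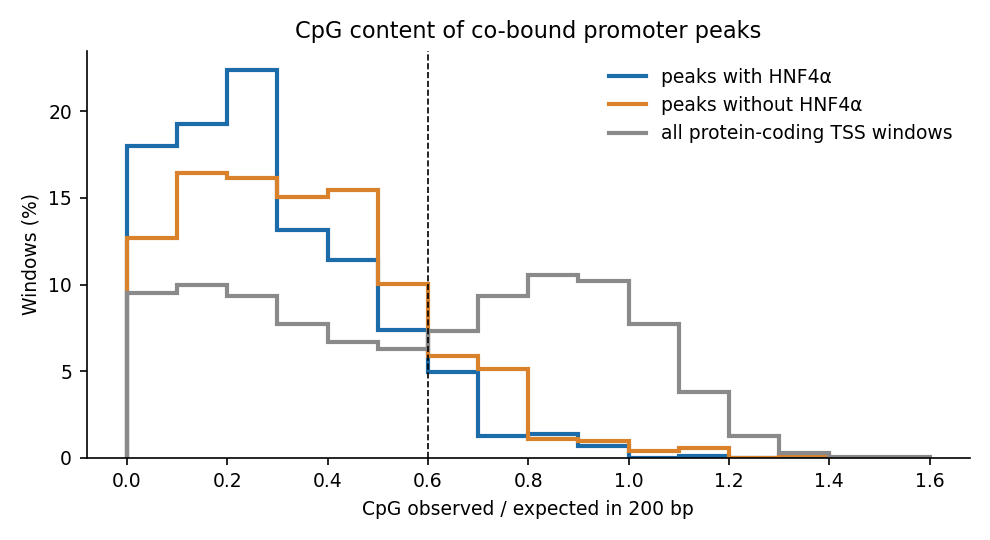
The horizontal axis is the ratio of observed to expected CpG in 200 bp and the vertical axis the percentage of windows per step of 0.1, for co-bound promoters with HNF4α, co-bound promoters without HNF4α and all protein-coding TSS windows; values above 1.6 are in the last step and the dashed line is the limit of 0.6. Both groups of promoters lie mostly below the limit, with medians of 0.248 and 0.326, while the TSS windows have a median of 0.607.

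The TSSs beside these peaks were more often CpG-rich than the peaks themselves. Of the 1456 distinct TSS windows nearest to the promoter peaks, 553 (37.98%) were CpG-rich, against 48.6% of the other TSS windows. Peaks beside a CpG-rich TSS lay farther from it than peaks beside other TSSs, which is in part built in. A peak centred under 200 bp from a TSS shares bases with the TSS window, and most peaks were not CpG-rich. The 581 peaks with a CpG-rich nearest TSS had their centre a median of 588 bp from it and 13.8% of them lay within 200 bp, whereas the 1004 others lay a median of 178 bp away and 52.6% lay within 200 bp, a difference of -38.8 points in the share within 200 bp (chi-square p = 6.03e-53). HNF4α was present at 50.3% (292 of 581) of the former and 57.3% (575 of 1004) of the latter (chi-square p = 0.00688).

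The co-bound promoter peaks gathered just upstream of the TSS. The median position was 100 bp upstream, with quartiles of 357 bp upstream and 246 bp downstream, and 64.98% of the centres lay upstream. The 200 bp before the TSS held 29.2% (463 of 1585) and the 200 bp after it 9.15% (145). Few centres lay in the stretch beyond. Between 100 and 400 bp downstream there were 89 (5.62%), against 432 (27.3%) between 400 and 100 bp upstream. Centres lay in an annotated exon in 14.9%, in an intron in 45.05% and between genes in 40.1%, and 380 promoters (23.97%) lay at a TSS over 1 kb inside the outermost start of their gene.

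HNF4α varied with this position. It was present at 59.4% (275 of 463) of the peaks centred 200 to 1 bp upstream and 43.4% (63 of 145) of those 0 to 200 bp downstream, a difference of 15.9 points (interval 6.63 to 24.9, chi-square p = 0.000745). The pair of bins was picked after seeing the distribution, so this p value is not that of a comparison set in advance. Among bins of 200 bp the share was highest, at 63.7% (65 of 102), from 1000 to 800 bp upstream. Peaks centred in exons had HNF4α in 47.9% (113 of 236) and the others in 55.9% (754 of 1349, chi-square p = 0.0225). The share of peaks anywhere upstream was 66.6% with HNF4α and 63.1% without, which was not significant (chi-square p = 0.151, interval of the difference -1.25 to 8.18 points), and became so with promoters limited to 500 bp (6.70 points, p = 0.0160) or with HNF4α covering 25% (5.03 points, p = 0.0407).

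**Figure D4:**
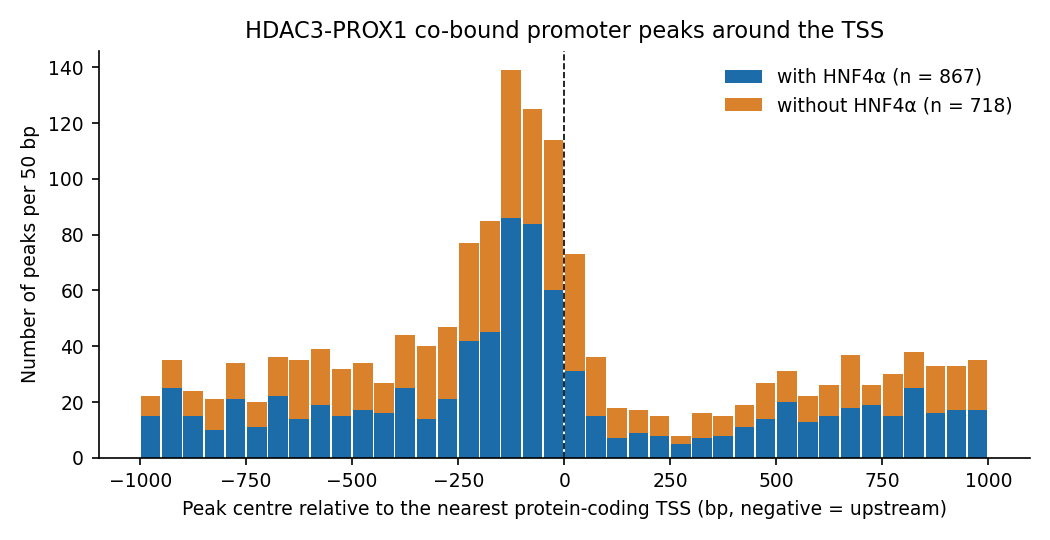
The horizontal axis is the position of the peak centre relative to the nearest protein-coding TSS in bp, and the vertical axis the number of co-bound promoter peaks per 50 bp, stacked for 867 with and 718 without HNF4α. The peaks gather in the 200 bp before the TSS, which hold 463 of 1585, and thin out from 100 to 400 bp after it, where there are 89.

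The 1585 promoter peaks belonged to 1331 nearest genes, of which 213 had more than 1 peak, so peaks of one gene are not independent. A gene was counted when a peak lay within 1 kb of any of its protein-coding TSSs, which held for 1398 of 22372 protein-coding genes (6.25%), and a peak with HNF4α for 841 (3.76%). The most peaks at 1 gene were 4, found at 6 genes, and HNF4α was unevenly spread among them. Slc25a42, which encodes a mitochondrial carrier of coenzyme A, had HNF4α at 3 of its 4 peaks, with scores from 31.6 to 78.2. Rhobtb1 had it at 2. Ablim1, Fetub, Ip6k2 and Pla2g6 had it at 1 each. Fetub, which encodes the plasma protein fetuin-B, had its 4 peaks within 3938 bp and HNF4α, with a score of 56.1, at the one 873 bp downstream of its TSS.

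The 10 promoters with the highest HNF4α scores were those of Rdh7, Dak, Mgst1, 9530008L14Rik, Cfb, Pcyt2, Xylb, 2810007J24Rik, C1rl and Fermt2. Rdh7, which encodes a retinol dehydrogenase, stood first with a score of 138.5 at a peak 52 bp upstream of the TSS. Dak, which encodes the kinase of dihydroxyacetone, had 132.9 at 160 bp upstream. Cfb, which encodes complement factor B, had 131.9 at 84 bp upstream. The HNF4 motif matched in 5 of the 10, namely Dak, 9530008L14Rik, Cfb, Pcyt2 and Xylb. Pcyt2, of phosphatidylethanolamine synthesis, and Xylb, which encodes xylulokinase, had their peaks 810 bp and 655 bp downstream, in an intron, and the other 8 peaks lay within 225 bp upstream.

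Genes of 18 lists of hepatocyte functions, regulators and signalling, and of 2 lists of general functions, were then read for a co-bound promoter beside the 6.25% of all protein-coding genes, with no test because the lists were chosen with earlier results known. Over these lists 212 of 482 genes (43.98%) had one, and 147 of the 212 had one with HNF4α. Over all protein-coding genes, 841 of the 1398 with a co-bound promoter had one with HNF4α. Whether the lists differ from this in HNF4α was not tested, here or in the counts by list below. None of 56 cytosolic ribosomal protein genes and none of 39 oxidative phosphorylation genes had one. Of 51 marker genes of Kupffer cells and other macrophages, endothelial cells, stellate cells and fibroblasts, cholangiocytes and lymphocytes, 0 had one. List by list, the intervals of these marker shares reach 24.25% to 32.4%, so they include the 6.25% as well.

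**Figure D5:**
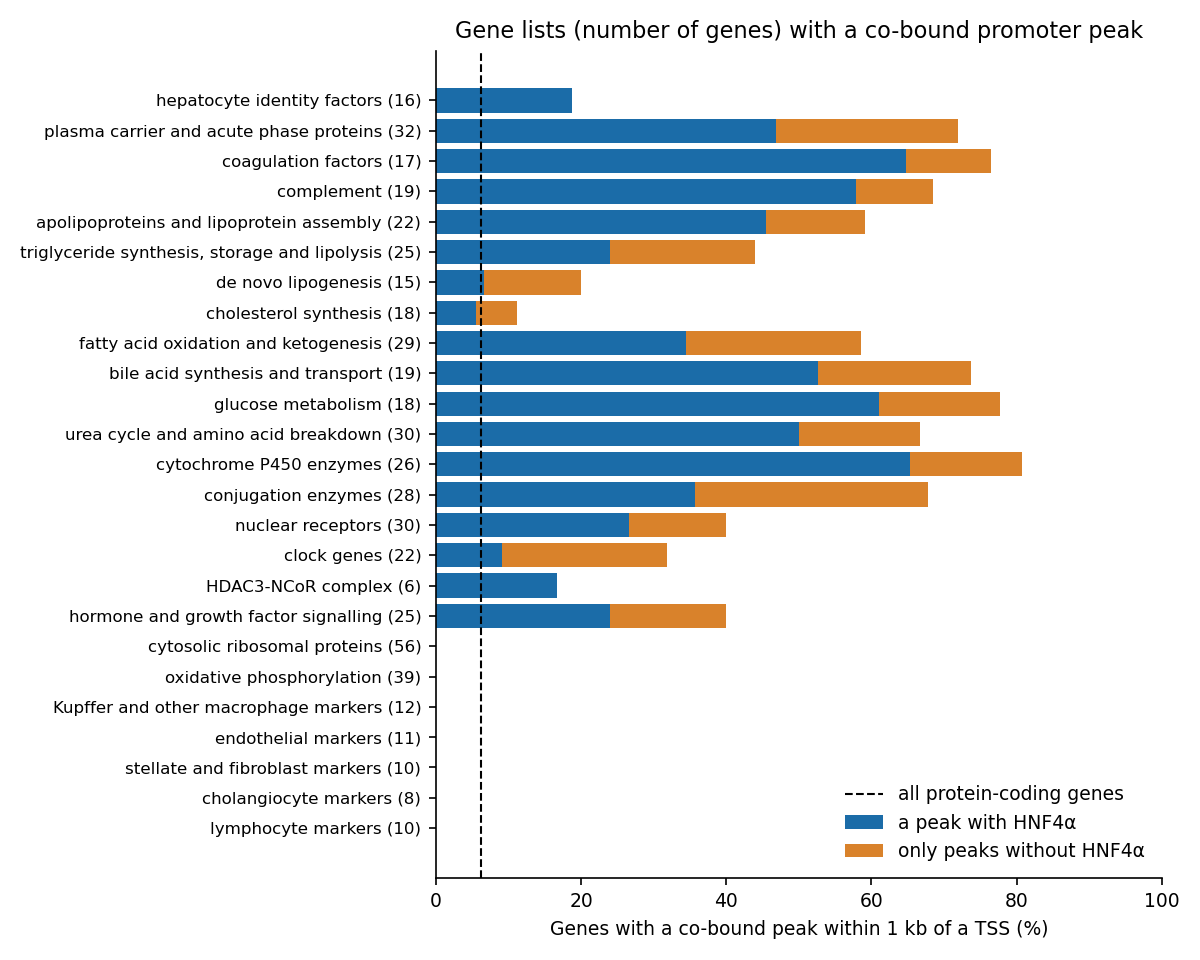
Horizontal bars give the percentage of genes in each of 25 lists, with the number of genes in parentheses, that had a co-bound peak within 1 kb of a TSS, divided into genes with a peak with HNF4α and genes with peaks without HNF4α only; the dashed line is the 6.25% of all protein-coding genes. Cytochrome P450 enzymes reach 80.8% and glucose metabolism 77.8%, and the ribosomal, oxidative phosphorylation and non-hepatocyte lists are at 0.

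Co-bound promoters of genes for secreted proteins of the liver were found at 23 of 32 genes of plasma carrier and acute phase proteins (15 with HNF4α), 13 of 17 coagulation factors (11 with HNF4α) and 13 of 19 complement genes (11 with HNF4α). Ahsg, which encodes fetuin-A, had 2 peaks with HNF4α, one of them 105 bp upstream with a score of 103.2 and both the HNF4 and the C/EBP motif. Serpina6, which encodes the corticosteroid-binding globulin, had a score of 80.6 at 124 bp upstream and both motifs. Among genes of closely related serpins HNF4α differed. Serpina1b had HNF4α at 147 bp upstream with a score of 60.8, while the peak of Serpina1c, 153 bp upstream, was not touched by HNF4α. These genes are near copies, so both calls are uncertain. Trf, which encodes transferrin, fell just under the limit with 48.5% covered by an HNF4α peak with a score of 91.9.

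Among coagulation factors, F9, which encodes factor IX, had HNF4α with a score of 84.8 at 44 bp upstream and both motifs. F2, which encodes prothrombin, had 2 peaks with HNF4α, one 90 bp upstream with a score of 77.7 and no match to either motif. F10 and Serpinc1, which encode factor X and its inhibitor antithrombin, had peaks without HNF4α. At Serpinc1 an HNF4α peak with a score of 75.4 covered 16% of the peak. Among complement genes, C3, which encodes the central component, had HNF4α with a score of 82.9 at 131 bp upstream and the C/EBP motif. C4b had 58.4 at 120 bp upstream and the HNF4 motif. C4bp had a peak 1 bp upstream of its TSS with no HNF4α.

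Enzymes of drug and steroid handling also had co-bound promoters. Of 26 cytochrome P450 genes, 21 (80.8%, interval 62.1 to 91.5) had a co-bound promoter and 17 one with HNF4α. Cyp2c37 had HNF4α with a score of 75.9 at 110 bp upstream and both motifs, and Cyp1a2, which metabolises caffeine, had 42.4 at 95 bp upstream and neither. Cyp2e1, the ethanol-inducible enzyme, was counted without HNF4α because 49% of its peak was covered, by an HNF4α peak with a score of 80.6. Cyp2f2, a periportal enzyme, had a peak 44 bp upstream that HNF4α did not touch. Of 28 conjugation enzymes, 19 had a co-bound promoter and 10 one with HNF4α. Sult1a1, a sulfotransferase, had HNF4α with a score of 69.7 at 27 bp upstream. The glucuronosyltransferases Ugt2b1 and Ugt2b34 were touched over 36.5% and 46.5% of their peaks and counted as without.

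Bile acid genes had a co-bound promoter in 14 of 19 cases and one with HNF4α in 10. Cyp7a1, which encodes the rate-limiting enzyme of bile acid synthesis, had HNF4α with a score of 94.7 at 166 bp upstream and the HNF4 motif. Cyp8b1, which encodes the 12α-hydroxylase, had 91.9 at 78 bp upstream and the same motif. Among transporters, Slc10a1 and Abcb11, which encode the main uptake carrier and the export pump of bile salts, had HNF4α with scores of 53.7 and 65, values looked up after the rule for naming genes was applied. The uptake transporter Slco1b2 had its peak 2 bp upstream, the organic anion pump Abcc2 71 bp downstream, and the bile acid receptor Nr1h4 had 3 peaks, and HNF4α was at none of these.

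Glucose metabolism genes had a co-bound promoter in 14 of 18 cases (11 with HNF4α). G6pc, which encodes the catalytic subunit of glucose-6-phosphatase, had HNF4α with a score of 106.5 at 32 bp downstream of the TSS. Slc37a4, which encodes the transporter that supplies glucose-6-phosphatase, and Pygl, which encodes liver glycogen phosphorylase, had peaks that HNF4α did not touch, 175 bp and 562 bp upstream.

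Genes of the urea cycle and amino acid breakdown had one in 20 of 30 cases (15 with HNF4α). Nags, which makes the activator of the cycle, had HNF4α with a score of 124.9 at 759 bp downstream, and Otc, which encodes ornithine transcarbamylase, had 57.0 at 3 bp downstream. Cps1, Ass1 and Arg1, which encode other enzymes of the cycle, had peaks 68, 386 and 101 bp upstream that HNF4α did not touch. Hgd, of tyrosine breakdown, had a score of 108.4 at 12 bp upstream and both motifs.

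Lipid genes were read by pathway. Apolipoprotein and lipoprotein assembly genes had a co-bound promoter in 13 of 22 cases (10 with HNF4α), fatty acid oxidation and ketogenesis genes in 17 of 29 (10) and triglyceride genes in 11 of 25 (6). De novo lipogenesis genes had one in 3 of 15 cases (1) and cholesterol synthesis genes in 2 of 18 (1), and the differences between pathways were not tested. Apob, which encodes the structural protein of VLDL, had 2 peaks with HNF4α, one 879 bp downstream with a score of 120.6. Apoa2, of HDL, had 97.1 at 28 bp upstream, and Apoa5, which regulates plasma triglycerides, had 48.1 at 78 bp upstream. The oxidation genes named had scores of 24.5 at Echs1, 25.9 at Eci1, 29.7 at Eci2 and 56.5 at Hadh. Acadm and Hadha, which encode enzymes of the same pathway, had peaks that HNF4α did not touch.

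In triglyceride metabolism, Cideb, a lipid droplet protein gene needed for VLDL lipidation, had HNF4α with a score of 87.2 at 48 bp downstream and the HNF4 motif, and Gpam, which encodes the first acyltransferase of glycerolipid synthesis, had 37.2 at 81 bp downstream. Lpin1 and Lpin2, which encode phosphatidate phosphatases, had peaks without HNF4α. In lipogenesis, Acacb, which encodes an acetyl-CoA carboxylase, had HNF4α with a score of 38.2. The fatty acid elongase gene Elovl6 held the HNF4 motif in a peak 174 bp upstream that HNF4α did not touch, and Thrsp, a lipogenic gene that responds to thyroid hormone, had a peak 61 bp upstream without HNF4α. In sterol regulation, Scap, which escorts SREBP, had HNF4α with a score of 44.8, and Insig2 none.

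Genes of regulators were read in the same way, and no difference between lists was tested. Nuclear receptors had one in 12 of 30 cases (8 with HNF4α). The xenobiotic receptors Nr1i3 (CAR) and Nr1i2 (PXR) had HNF4α with scores of 112.6 and 84.8. Esr1, the estrogen receptor alpha gene, had a peak without HNF4α. Clock genes had one in 7 of 22 cases, with HNF4α in 2, Ciart and Csnk1d. The other 5 included Nr1d1, which encodes REV-ERBα, with a peak 179 bp upstream and the C/EBP motif, and Npas2 and Per3. Of 16 hepatocyte identity factors 3 had one, each with HNF4α, namely Foxa2 (score 43.8), Nr5a2 (52.3) and Gata4 (48.1). Of 6 genes of the HDAC3-NCoR complex 1 had one, Ncor1, with a score of 39.6.

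Hormone and growth factor genes had one in 10 of 25 cases (6 with HNF4α). Igfbp1, which encodes an insulin-regulated binding protein of IGF, had HNF4α with a score of 91.9 at 172 bp upstream and the HNF4 motif. Igf1 itself had a score of 20.3, the lower end of the range, at 515 bp upstream. The glucagon receptor gene Gcgr and the Egfr gene had peaks 840 bp and 852 bp upstream that HNF4α did not touch, although that of Egfr held both motifs.

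Genes with a co-bound promoter mostly had distal co-bound peaks too. In the window from 50 kb upstream of the gene to 2 kb past its end, 82.9% of the 841 genes with an HNF4α-bound promoter and 81.2% of the 557 genes with co-bound promoters without HNF4α only had at least 1, against 32.8% of the 20974 other protein-coding genes. Median gene lengths were 24.2, 23.9 and 14.9 kb, so the windows differ in size, and the part of this in the difference was not tested. A distal co-bound peak with HNF4α lay in the window at 70.6% (393) of the 557 genes, 73.2% (616) of the 841 and 26.01% (5456) of the 20974, with no test of these differences. Of the 16 hepatocyte identity factors, the 13 with no co-bound promoter all had a distal co-bound peak in the window. This was not particular to them. Among genes with no co-bound promoter, all 14 triglyceride and all 12 de novo lipogenesis genes also had a distal peak. Of cholesterol synthesis genes 11 of 16 did.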

How the data were processed

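HDAC3, PROX1 and HNF4α ChIP-seq of liver was read from 1 deposited list of pooled peaks per factor. By the methods and the submitters' processing notes, reads were mapped by the authors to mm9 (Bowtie 0.12.7), stripped of duplicates and pooled over replicates, and HOMER called peaks against IgG above limits of enrichment and of normalized reads. The HNF4α list was, by the methods, also filtered on livers lacking HNF4α. For HDAC3 and PROX1 the lists hold positions alone. In the HNF4α list the deposited score is that of HOMER. No counts were given, so depth and replicate error are unknown.

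Positions were annotated with GENCODE M1 on NCBIM37, using transcripts that are protein-coding in a protein-coding gene. Coverage, motifs and CpG were computed per 200 bp peak, and intervals of differences follow Newcombe. Of 36 chi-square comparisons of shares, 24 had p under 0.05, and 24 also after Benjamini-Hochberg adjustment over the 36. The p values printed are unadjusted unless stated. Overlaps, motif searches and tests were checked on simulated data. The analysis ran in Python 3.11.15 with scipy 1.17.1 for the tests, numpy 2.4.6 and pandas 2.3.3 for the tables, samtools 1.23.1 and pysam 0.24.0 for the sequences and matplotlib 3.10.9 for the plots.

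The promoters, gene lists, motifs and comparisons were chosen with earlier results of these data known. Genes named were the 10 with the highest HNF4α score, those with the most peaks, those at the limits, and in each list examples from the first 4 with HNF4α and the first 3 without in list order. Sequences were chosen by HNF4α score or nearness to the TSS among peaks outside transcripts. Alternatives changed the coverage, the HNF4α list, the promoter distance, the TSS set, the peaks per gene, the chromosomes, the correction, the motif and window rules and the blocks. HDAC3 and PROX1 lists of livers without HNF4α and expression data were not analysed here.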

Additional observations from a re-analysis of the deposited data

How the results depend on the processing

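Each result was recomputed with 1 choice changed at a time, giving 98 alternative values, of which 88 kept their direction and side of the threshold, or, for the share and the count without a test of their own, stayed within their limits. The share of promoters with HNF4α depended on the definition of binding: it was 61.1% with 25% coverage, 25.1% with 75% coverage, 37.2% with HNF4α peaks scoring above the median, and 62.2% in the first block. Over these alternatives, the difference from distal peaks ranged from -8.04 to -3.03 points and that from PROX1-only promoters from 12.9 to 32.96. That from HDAC3-only promoters ranged from 22 to 51.8 and that of the HNF4 motif from 4.10 to 27.6, and every chi-square p was under 0.05. Of the blocks, the first alone was among these alternatives. Within block 2 the difference from distal peaks was -9.72 points and that of the HNF4 motif 27.98, outside these ranges. Within block 3 the difference from distal peaks was -2.12 points and not significant (chi-square p = 0.508). HNF4α was present at 30.8% of block 3 promoters, close to the 29.2% of PROX1-only promoters, which was not tested. The upstream difference became significant with 25% coverage (5.03 points, chi-square p = 0.0407) and within 500 bp (6.70 points, p = 0.0160). The C/EBP difference lost significance with high-scoring HNF4α peaks (3.39 points, chi-square p = 0.129). The CpG-rich difference lost it with 75% coverage (-1.44 points, chi-square p = 0.224) and changed sign with the stricter CpG limits (0.183 points, p = 0.555). Of the further motifs, 2 passed with 25% coverage, DR1 and SP/KLF. The causes were not tested. Counting TSSs of every transcript of protein-coding genes gave 1954 promoters, 55.5% of them with HNF4α. That alternative and the first block alone were chosen after seeing the data.

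No paired analysis was possible because each deposited list pools the replicates of its factor and no value per replicate is given. Leaving out a replicate was not run for the same reason, and the intervals and p values do not measure the spread between livers. Neighbouring peaks, and peaks of 1 gene, are not independent. Absence of HNF4α here means absence from a list made with the authors' limits.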
